A study of Mus musculus with 21 samples.

Results

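The genes described here are the mouse Srsf, Hnrnp and numbered Rbm genes, which code for splicing factors and other RNA-binding proteins. They were chosen by name alone, as every gene whose symbol starts with Srsf and a digit, with Hnrnp, or with Rbm and a digit, leaving out symbols with -ps, in both deposited tables. This gave 70 genes, 11 Srsf, 20 Hnrnp and 39 Rbm genes, of 33622 genes that both tables hold. These families were singled out because mRNA processing genes had been seen at a higher level with delayed irisin in these same mice, so the values of that comparison are given as a description and support nothing.

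RNA-seq was made from the midbrain of 21 male C57BL/6 mice of 6 weeks, in 7 groups of 3. The methods describe nigral tissue taken by hand after perfusion, so each library mixes neurons, glia and vessel cells. Every mouse received injections for 10 days, with ddH2O as the vehicle, MPTP at 30 mg/kg per day for 5 days and irisin at 200 μg/kg per day for 5 days. In the pre-treatment experiment, control mice received vehicle throughout, MPTP mice received vehicle and then MPTP, and the third group received irisin and then MPTP. In the delayed treatment experiment, control mice again received vehicle throughout, irisin mice received vehicle and then irisin, MPTP mice received MPTP and then vehicle, and the fourth group received MPTP and then irisin. The time from the last MPTP injection to sacrifice therefore differed between the experiments, which were deposited and tested separately. MPTP is a toxin taken up by dopaminergic neurons after its conversion in the brain, and it models their loss, not the inherited or slow forms of Parkinson's disease. Irisin is the secreted part of the muscle membrane protein FNDC5.

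Pre-mRNA splicing removes introns in the spliceosome, a particle of small nuclear RNAs and proteins. SR proteins, coded by the Srsf genes, bind exonic enhancer sequences and help the spliceosome to recognise exons, whereas hnRNP proteins coat nascent RNA and often act as repressors of splice sites. The Rbm genes share only the RNA recognition motif in their name and have diverse roles, from the exon junction complex (Rbm8a) to the response to cooling (Rbm3). Many SR and hnRNP genes are known to limit their own protein by splicing in an exon that sends the transcript to nonsense-mediated decay.

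In the midbrain the families differed in level. On the FPKM scale, which divides by gene length, the median of the 20 Hnrnp genes was 25.4 in the pre-treatment and 21.97 in the delayed treatment experiment. The 11 Srsf genes had medians of 19.1 and 13.5 FPKM, and the Rbm genes had medians of 4.52 and 3.76 FPKM. Every tested gene together had medians of 2.10 and 2.20 FPKM, so all 3 families lay above the typical gene.

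Hnrnpa1, a repressor of exon inclusion, had the highest level of the 70 genes in both experiments, with mean levels of 83.4 and 67.0 FPKM. It was followed among the Hnrnp genes by Hnrnpa2b1, which also sorts RNA for transport, with 64.7 and 51.8 FPKM, then by Hnrnpul2 with 37.96 FPKM in the pre-treatment experiment and by Hnrnpab with 36.8 FPKM in the delayed treatment experiment, where Hnrnpul2 had 33.5 FPKM. Among the SR genes, Srsf5 had 49.7 and 33.1 FPKM, Srsf2 had 45.4 and 35.7 FPKM, and Srsf6 had 35.2 and 26.4 FPKM. The leading Rbm genes were Rbm39 with 24.1 and 17.6 FPKM, Rbm17 with 18.1 and 18.5 FPKM and Rbm42 with 13.2 and 19.8 FPKM. The lowest tested member was Srsf10 in the Srsf family, with 5.98 and 5.25 FPKM, and Hnrnpll in the Hnrnp family, with 3.61 and 3.06 FPKM. In the Rbm family it was Rbm47 with 0.0741 FPKM in the pre-treatment experiment and Rbm46 with 0.0641 FPKM in the delayed treatment experiment. In all, 35 and 32 of the 70 genes were at 10 FPKM or more, and 8 were under 1 FPKM in each experiment.

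**Figure D1:**
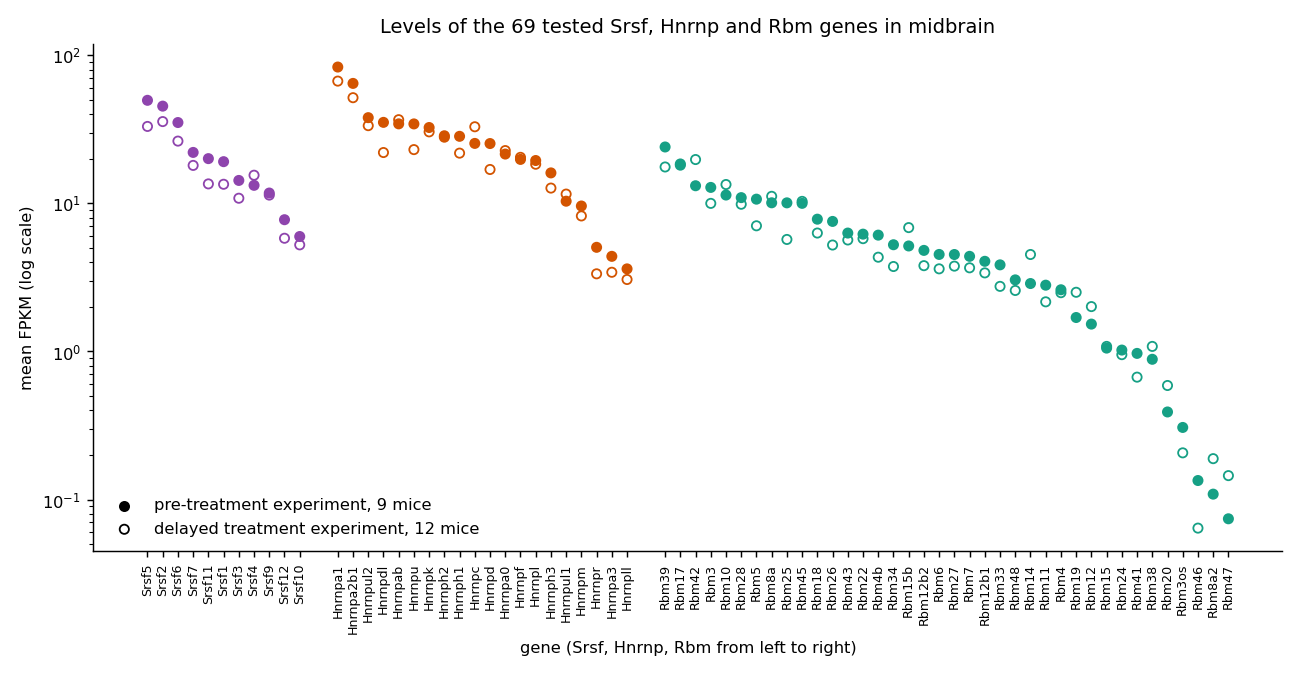
Mean FPKM of the 69 tested genes on a log axis, by family, with filled points for the 9 mice of the pre-treatment experiment and open points for the 12 mice of the delayed treatment experiment. Most Hnrnp and Srsf genes lay between 10 and 100 FPKM, whereas Rbm genes spread from under 0.1 to 24.1 FPKM.

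Libraries held 66.7 to 75.6 M (mega) counts in the 9 mice of the pre-treatment experiment and 48.8 to 77.2 M in the 12 mice given delayed treatment or its controls. Of the 70 genes, 69 passed the filter on low counts in each experiment, and Rbm44 had counts in 3 of 21 mice and was not tested. Together the 70 genes made up 0.604 to 0.645% of a library in the former and 0.452 to 0.547% in the latter. Within a group the level of a member varied little, with a median SD of 0.0934 and 0.105 on the log2 scale, against 0.201 and 0.206 over every tested gene. Mitochondrial genes made up 10.6 to 12.9% and 7.65 to 9.50% of a library. The markers of neurons, astrocytes, oligodendrocytes, microglia, endothelial cells and dopaminergic neurons had counts in every group. Choroid plexus markers, which belong to tissue beside the midbrain, ranged from 6.95 to 1604 CPM in sum between mice of the former and from 34.7 to 1620 CPM between mice of the latter. In such bulk tissue, fewer cells of a type and less RNA per cell cannot be told apart.

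Values below are CPM (counts per 1 M of the TMM scaled library) of the mice of a group in the order of their replicate numbers, means are given with their SD, and fold changes are log2 fold changes with their standard error from edgeR. Adjusted p-values are Benjamini-Hochberg values over all tested genes.

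The comparison of MPTP mice with control mice asks which genes the toxin moved. Of the 69 tested members, 0 passed an adjusted p of 0.05 in the pre-treatment experiment, by edgeR and by DESeq2, where 0.0221% of 22641 tested genes passed by edgeR. At an unadjusted p under 0.05 there were 6 members, 2 higher and 4 lower, beside 6.03% of all tested genes, 3.36% higher and 2.67% lower. The groups did not overlap for 11 members, 5 higher and 6 lower, beside 11.6% of all tested genes, 5.71% higher and 5.93% lower. The median log2 fold change of the members was 0.02, with 39 of 69 above 0, beside 49.6% of all tested genes. The 95% interval of the change lay within 1.5-fold in either direction for 54 of the 69.

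For the MPTP mice of the delayed treatment experiment, 0 of 69 members passed by edgeR, where 0.132% of 21922 tested genes passed, and 1 member, Rbm38, passed by DESeq2. At an unadjusted p under 0.05 there were 11 members, 7 higher and 4 lower, beside 8.33% of all tested genes, 4.32% higher and 4.01% lower. Without overlap between the groups were 15 members, 9 higher and 6 lower, beside 16.2% of all tested genes, 8.24% higher and 7.94% lower. The median log2 fold change was -0.0043, with 33 of 69 above 0, beside 49.7% of all tested genes.

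**Figure D2:**
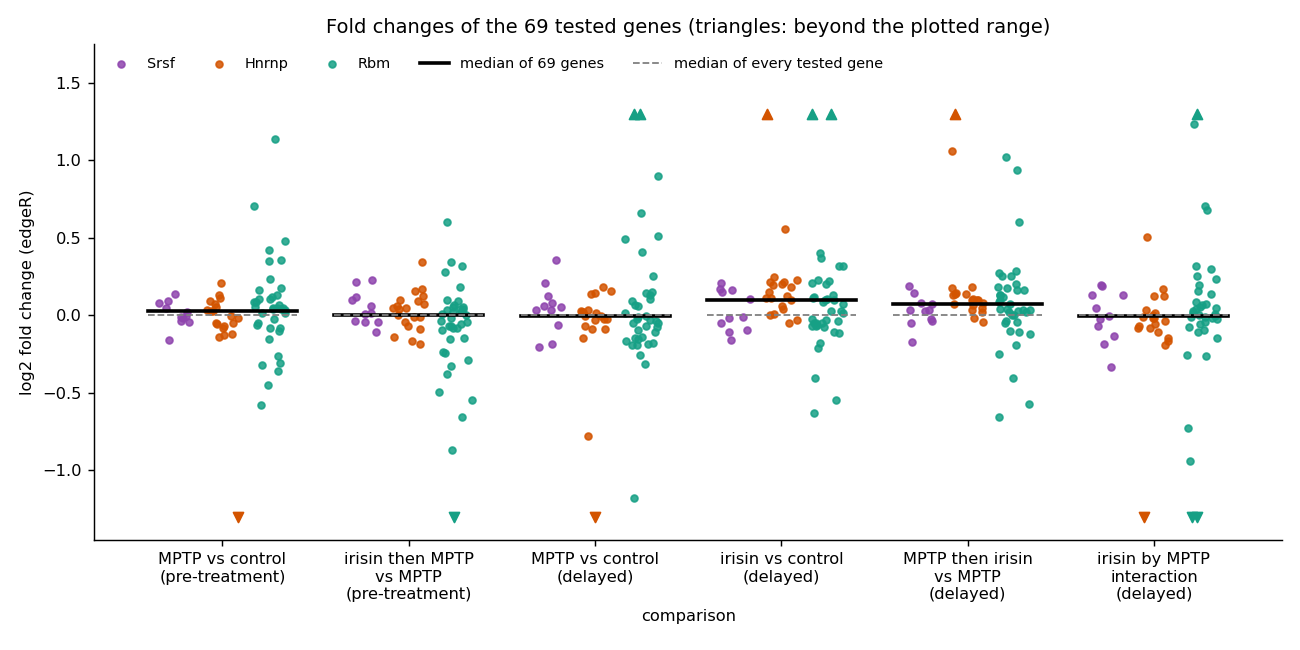
Log2 fold change of each of the 69 tested members in 6 comparisons, coloured by family, with triangles for values beyond 1.3 in either direction. The black line is the median of the members and the dashed line that of every tested gene, and the black line lies furthest above the dashed line for irisin alone, at 0.10, and for irisin after MPTP, at 0.07.

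Srsf5 (chr12:80945504-80950507, + strand), an SR protein that enhances the inclusion of exons, was lower in MPTP mice than in control mice without overlap in both experiments. In the pre-treatment experiment it was 231, 220.0 and 233 CPM in control mice and 204, 209 and 199 CPM in MPTP mice, a change of -0.16 ± 0.053 (adjusted p = 0.818). In the delayed treatment experiment it was 147, 170.3 and 165 CPM in control mice and 145, 145 and 134 CPM in MPTP mice, a change of -0.19 ± 0.063 (adjusted p = 0.449). Srsf5 was the 1 member of 69 (1.45%) lower or higher in both experiments alike without overlap, beside 1.48% of genes tested in both. Neither change passed the adjusted threshold.

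Rbm3 (chrX:8138975-8145880, - strand) codes for a cold-inducible RNA-binding protein of neurons and other cells. It was 76.8, 81.0 and 76.1 CPM in control mice and 60.5, 50.3 and 60.6 CPM in MPTP mice of the pre-treatment experiment, a change of -0.45 ± 0.13 (adjusted p = 0.791). The delayed treatment experiment had 41.0, 44.0 and 32.5 CPM in control mice and 57.3, 57.3 and 50.9 CPM in MPTP mice, a change of 0.49 ± 0.13 (adjusted p = 0.347). The groups did not overlap in either experiment, and the direction was opposite.

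Cirbp, the other known cold-inducible RNA-binding gene and no member, was 39.1, 51.6 and 63.7 CPM in control mice and 39.0, 27.6 and 29.7 CPM in MPTP mice of the pre-treatment experiment (-0.68, adjusted p = 0.818). In the delayed treatment experiment it was 35.5, 43.6 and 27.95 CPM in control mice and 29.2, 33.7 and 28.6 CPM in MPTP mice, which overlapped, with none of the separation seen for Rbm3. Rbm3os (chrX:8145429-8147964, + strand), a noncoding RNA whose gene overlaps the start of Rbm3 on the opposite strand, also lay lower without overlap in the pre-treatment experiment and higher in the delayed treatment experiment. Its levels were at most 0.673 CPM in any mouse. The use of strand in counting is not given in the sources used here. Reads from the stretch where both genes overlap therefore cannot be assigned to Rbm3os or to Rbm3 with certainty. The rest of the Rbm3os gene lies outside Rbm3, and how its reads divide between these parts was not tested. Members with opposite directions without overlap were Hnrnpc, Rbm3 and Rbm3os, 3 of 69 (4.35%), beside 0.596% of all genes tested in both experiments. The difference between the experiments was not tested, since they share no fit.

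Rbm38 (chr2:173020498-173034734, + strand), which binds AU-rich elements and is a target of p53, was 4.33, 5.90 and 4.06 CPM in control mice and 2.46, 2.27 and 1.57 CPM in MPTP mice of the delayed treatment experiment. The groups did not overlap, and the change was -1.18 ± 0.31 (adjusted p = 0.323 by edgeR and 0.0385 by DESeq2). In the pre-treatment experiment its change was 0.04. Rbm15, an adaptor of the m6A methylation complex, was 7.99, 8.35 and 7.64 CPM in control mice and 10.3, 10.5 and 11.01 CPM in MPTP mice of the delayed treatment experiment, a change of 0.41 ± 0.12 (adjusted p = 0.380).

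Rbm20, the splicing regulator of titin in heart muscle, was 3.56, 3.47 and 2.79 CPM in control mice and 4.63, 8.70 and 4.97 CPM in MPTP mice of the delayed treatment experiment, a change of 0.90 ± 0.26 (adjusted p = 0.384). Here 1 MPTP mouse lay far above the other two, and without it the change was 0.55. Srsf3, an SR protein that also exports mRNA, was 89.2, 86.5 and 88.2 CPM in control mice and 103.9, 101.9 and 99.5 CPM in MPTP mice, a change of 0.21. Srsf7, its close relative, was 63.7, 55.3 and 72.6 CPM in control mice and 83.9, 80.9 and 79.9 CPM in MPTP mice, a change of 0.35. Both were higher without overlap in that experiment, and in the pre-treatment experiment their changes were -0.02 and -0.01.

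In the pre-treatment experiment Rbm11, a tissue-restricted splicing regulator, was 8.44, 9.65 and 9.92 CPM in control mice and 7.17, 7.94 and 7.35 CPM in MPTP mice, a change of -0.32 ± 0.11 (adjusted p = 0.818). Rbm6 was 70.2, 68.0 and 62.7 CPM in control mice and 74.5, 75.1 and 75.7 CPM in MPTP mice, a change of 0.17 ± 0.072 (adjusted p = 0.823). Rbm8a, the Y14 subunit of the exon junction complex, was 33.3, 34.5 and 32.2 CPM in control mice and 40.6, 54.1 and 33.2 CPM in MPTP mice, a change of 0.36 ± 0.15 (adjusted p = 0.823). Rbm11 and Rbm6 did not overlap between the groups, whereas the third MPTP mouse of Rbm8a lay within the range of the control mice. Without the second MPTP mouse, which also held the highest choroid plexus sum of its experiment, the change of Rbm8a was 0.15.

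Rbm8a has a near-copy among the members, Rbm8a2. The first 30 coding bases in the GENCODE annotation of GRCm38 are shown, with the base that differs in capitals.
Rbm8a (chr3:96629933-96633791, + strand): atggcggacgtgctggatcttcaCgaggcg
Rbm8a2 (chr1:175977777-175979114, - strand): atggcggacgtgctggatcttcaTgaggcg
They share 47.9% of the 30-base windows of the Rbm8a coding sequence, so some reads fit both. Rbm8a2 was at most 0.746 CPM in any mouse.

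MPTP damages dopaminergic neurons, and the summed markers of these neurons were 317 to 368 CPM in control mice and 174 to 267 CPM in MPTP mice of the delayed treatment experiment. They were 259 to 431 CPM in control mice and 259 to 493 CPM in MPTP mice of the pre-treatment experiment. The mitochondrial share was 8.48 to 9.50% in control mice and 7.65 to 7.80% in MPTP mice of the delayed treatment experiment. Neuron markers summed to 6110 to 6180 CPM in those control mice and 5704 to 5924 CPM in those MPTP mice, with 2 of 6 lower at an unadjusted p under 0.05. Of 4 choroid plexus markers, 4 had an unadjusted p under 0.05 and a higher mean in the MPTP mice of the pre-treatment experiment, where the groups overlapped, with sums of 7.25 to 11.8 CPM in control mice and 7.50 to 1604 CPM in MPTP mice. The part of any of these in the changes of the members was not tested.

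Irisin before MPTP was compared with MPTP alone to ask what irisin pre-treatment changed in mice that all received the toxin. These tests share the MPTP mice with the comparison above, so a gene low in those mice by chance would move in both. Of 69 members, 0 passed the adjusted threshold by edgeR, beside 0.0707% of all tested genes, and 1, Rbm12b2, passed by DESeq2. At an unadjusted p under 0.05 there were 9 members, 5 higher and 4 lower, beside 6.22% of all tested genes, 2.93% higher and 3.29% lower. Separated groups were seen for 17 members, 9 higher and 8 lower, beside 14.2% of all tested genes, 7.14% higher and 7.08% lower. The median log2 fold change was 0.0018, with 35 of 69 above 0, beside 50.7% of all tested genes.

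Srsf5 was 236, 231 and 249 CPM in mice given irisin before MPTP, above all 3 MPTP mice, with a change of 0.23 ± 0.053 (adjusted p = 0.368). Srsf11, an SR protein known for the inclusion of neuronal microexons, was 169, 190 and 198 CPM in MPTP mice and 212, 205 and 226 CPM in mice given irisin before MPTP, a change of 0.21. Rbm11 was 9.27, 9.03 and 9.73 CPM in mice given irisin before MPTP, a change of 0.32 ± 0.11 (adjusted p = 0.631). All 3 were higher than in MPTP mice without overlap.

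Hnrnpc, which binds uridine-rich tracts and masks cryptic exons, was 137, 128 and 132 CPM in MPTP mice and 116, 115 and 122 CPM in mice given irisin before MPTP, a change of -0.17 ± 0.056 (adjusted p = 0.648). Rbm41, a protein of the minor spliceosome, was 8.68, 9.07 and 9.78 CPM in MPTP mice and 4.29, 6.50 and 6.68 CPM in mice given irisin before MPTP, a change of -0.66 ± 0.21 (adjusted p = 0.630). Both were lower without overlap. Rbm3 was 82.9, 64.4 and 60.2 CPM in mice given irisin before MPTP and overlapped with MPTP mice, with a change of 0.28.

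Rbm12b2 had the smallest p-value of the members in this comparison. It was 21.3, 20.02 and 21.5 CPM in MPTP mice and 14.1, 13.3 and 17.2 CPM in mice given irisin before MPTP, without overlap, and the change was -0.49 ± 0.11 (adjusted p = 0.336 by edgeR and 0.0238 by DESeq2). Rbm12b2 lies beside a near-copy of itself, Rbm12b1, and the start of their coding sequences is shown because 73.9% of the 30-base windows of the Rbm12b1 coding sequence are also in Rbm12b2.
Rbm12b1 (chr4:12140264-12146731, + strand): atggctgtagtcatccgtttactggggctt
Rbm12b2 (chr4:12089439-12096243, + strand): atggctgtagtcatccgtttactggggctt
These 30 bases do not differ. Rbm12b1 was 20.3, 17.3 and 19.5 CPM in MPTP mice and 14.3, 13.6 and 3.24 CPM in mice given irisin before MPTP, also without overlap. How reads that fit both genes were assigned is not given in the sources used here, so the split between them is uncertain.

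The summed red blood cell markers were 396 to 592 CPM in MPTP mice and 169 to 330 CPM in mice given irisin before MPTP. Astrocyte markers summed to 1078 to 1178 CPM in MPTP mice and 938 to 1042 CPM in mice given irisin before MPTP. Dopaminergic markers summed to 259 to 493 and 200.5 to 317 CPM, with a median log2 fold change of -0.31 and 2 of 7 lower at an unadjusted p under 0.05. Choroid plexus markers summed to 7.50 to 1604 and 6.95 to 23.2 CPM, with 2 of 4 lower at an unadjusted p under 0.05. The part of any of these in the changes of the members was not tested.

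Irisin alone was compared with control mice to ask what irisin changed without the toxin. Of 69 members, 0 passed the adjusted threshold by edgeR, beside 0.109% of all tested genes, and 1, Hnrnpul2, passed by DESeq2. At an unadjusted p under 0.05 there were 12 members, 11 of them higher, beside 8.97% of all tested genes, 4.53% higher and 4.44% lower. Separated groups were seen for 16 members, 15 higher and 1 lower, beside 15.1% of all tested genes, 7.43% higher and 7.68% lower. The median log2 fold change of the members was 0.10, beside -0.0023 over every tested gene, with 43 of 69 above 0, beside 49.5% of all tested genes.

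The families are given side by side, and the difference between them was not tested. Of 20 Hnrnp genes, 17 were above 0, with a median of 0.14, and 8 had an unadjusted p under 0.05. Among the 8 was Hnrnpa3, whose change of 4.20 rested on irisin mouse 1 and was -1.07 without it. The medians were -0.01 for the 11 Srsf genes, with 5 above 0, and 0.03 for the 38 Rbm genes, with 21 above 0. Over 13 alternative settings, among them leaving out each mouse in turn, the median of the Hnrnp genes was 0.0901 to 0.165 with 15 to 19 of 20 above 0. Over the same settings the median of the Srsf genes was -0.0323 to 0.0526 and that of the Rbm genes -0.0124 to 0.0633, so both changed sign on leaving out 1 mouse. Control mice are shared with the comparison of MPTP and control above.

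Hnrnpul2 (chr19:8820010-8834143, + strand), a relative of the nuclear scaffold protein hnRNP U, was 228, 244 and 254 CPM in control mice and 285, 289 and 284 CPM in irisin mice. These groups did not overlap, and the change was 0.24 ± 0.047 (adjusted p = 0.148 by edgeR and 0.00766 by DESeq2). Hnrnpll, a repressor of exons known from lymphocytes and the lowest Hnrnp gene here, was 34.95, 37.6 and 39.3 CPM in control mice and 43.3, 44.0 and 43.8 CPM in irisin mice, a change of 0.23 ± 0.061 (adjusted p = 0.373). Hnrnpr, which binds mRNA in motor axons, was 72.1, 78.9 and 84.2 CPM in control mice and 89.1, 90.4 and 90.6 CPM in irisin mice, a change of 0.20 ± 0.061 (adjusted p = 0.435). For all 3 genes every irisin mouse was above every control mouse, and the irisin mice varied less than the control mice.

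Srsf1, a founding member of the SR proteins, was 79.8, 83.1 and 78.1 CPM in control mice and 94.7, 90.4 and 85.8 CPM in irisin mice, a change of 0.17 ± 0.059 (adjusted p = 0.492). Rbm3 was 53.1, 55.5 and 46.8 CPM in irisin mice, above the 3 control mice, a change of 0.40 ± 0.13 (adjusted p = 0.479). Hnrnpd, also known as AUF1, which binds AU-rich elements, was 114, 135 and 136 CPM in control mice and 151, 148 and 138 CPM in irisin mice, a change of 0.18. All 3 were higher without overlap. The changes of Hnrnpm, Hnrnpa2b1 and Hnrnpk were 0.21, 0.19 and 0.21, and for these 3 genes the groups overlapped. Srsf4 was the 1 member lower without overlap, at 59.82, 66.1 and 69.03 CPM in control mice and 56.9, 57.9 and 59.79 CPM in irisin mice. Control mouse 1 and irisin mouse 3 were almost equal, so this separation was slight. The change of Srsf4 was -0.16, and 37.8% of its 75-base windows are shared with an antisense gene, Gm12992.

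Control mouse 1 of the delayed treatment experiment lay apart, with a median deviation of -0.115 (log2) over the members from the mean of all 12 mice, beside -0.260 over 6 nuclear-retained RNAs. Mouse 2 given MPTP and then irisin was also low in these RNAs, at -0.293, with a median deviation of 0.0144 over the members. Without control mouse 1 the median of the members for irisin alone against control was 0.0394 in place of 0.10, and without irisin mouse 1 it was 0.0409. The summed markers of dopaminergic neurons were 286 to 316 CPM in irisin mice, those of neurons 5819 to 5947 CPM beside 6110 to 6180 CPM in control mice, and those of astrocytes 1279 to 1302 CPM beside 1387 to 1604 CPM. Choroid plexus markers summed to 55.2 to 286 CPM in irisin mice and 228 to 1474 CPM in control mice, with a median log2 fold change of -2.12 and 2 of 4 lower at an unadjusted p under 0.05. Their part in the changes of the members was not tested.

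**Figure D3:**
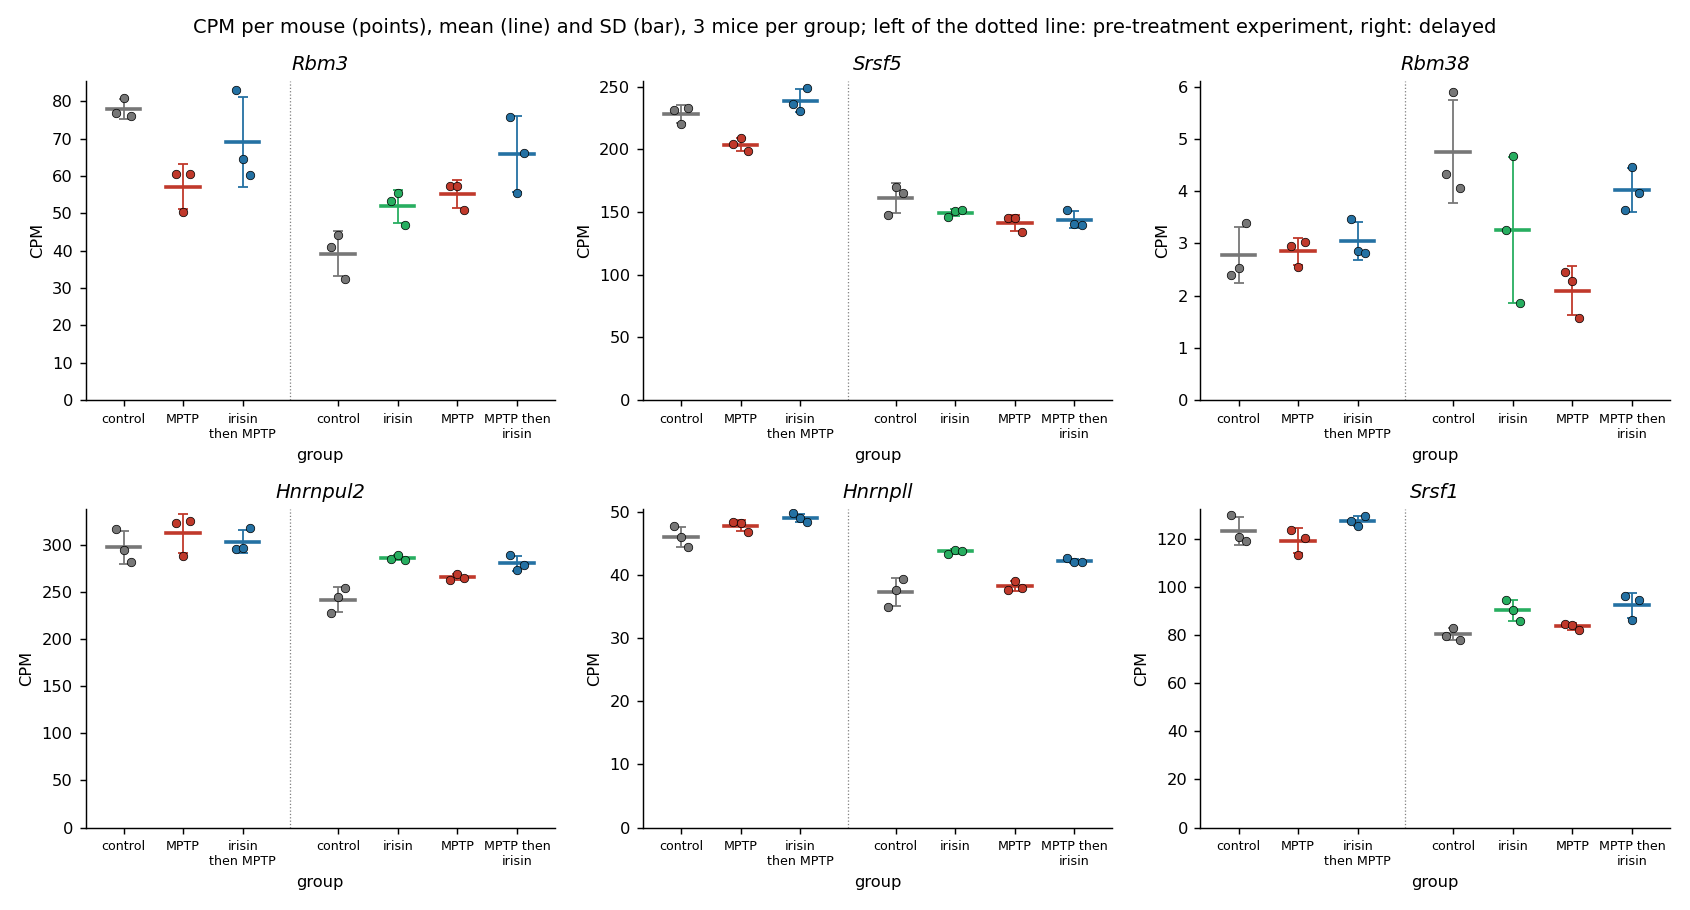
CPM of Rbm3, Srsf5, Rbm38, Hnrnpul2, Hnrnpll and Srsf1 in each of 21 mice, by group, with the mean and the SD of 3 mice. Rbm3 is lower with MPTP in the pre-treatment experiment and higher in the delayed treatment experiment, and Hnrnpul2, Hnrnpll and Srsf1 are higher in both irisin groups of the delayed treatment experiment than in its control and MPTP mice.

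Irisin after MPTP was compared with MPTP alone in the delayed treatment experiment. The families were chosen with this comparison in view, so its values are a description. By edgeR and DESeq2, 0 of 69 members passed the adjusted threshold, beside 0.00456% of all tested genes by edgeR. At an unadjusted p under 0.05 there were 7 members, all 7 higher, beside 3.9% of all tested genes, 2.06% higher and 1.85% lower. Separated groups were seen for 12 members, 12 higher and 0 lower, beside 10.7% of all tested genes, 5.35% higher and 5.38% lower. The median log2 fold change was 0.07 with 52 of 69 above 0, beside 49.9% of all tested genes. Without mouse 1 given MPTP and then irisin the median was 0.0422. The mitochondrial share was 7.65 to 7.80% in MPTP mice and 7.87 to 8.68% in mice given MPTP and then irisin, and its part in this shift was not tested. The Hnrnp genes had a median of 0.10 with 18 of 20 above 0, the Srsf genes a median of 0.03 with 7 of 11, and the Rbm genes a median of 0.04 with 27 of 38.

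Rbm38 was 3.64, 4.47 and 3.96 CPM in mice given irisin after MPTP, above all 3 MPTP mice, a change of 0.94 ± 0.31. Rbm26, a zinc-finger protein with RNA recognition motifs, was 42.5, 45.9 and 39.03 CPM in MPTP mice and 49.4, 47.9 and 49.3 CPM in mice given irisin after MPTP, a change of 0.20. Hnrnpdl, a close relative of Hnrnpd, was 111, 116 and 106 CPM in MPTP mice and 126, 129 and 123 CPM in mice given irisin after MPTP, a change of 0.18. None of these groups overlapped. Srsf1 was 84.8, 84.3 and 82.2 CPM in MPTP mice and 96.4, 86.5 and 94.5 CPM in mice given irisin after MPTP, a change of 0.14 without overlap. Hnrnpll was 37.6, 39.1 and 37.98 CPM in MPTP mice and 42.6, 42.1 and 42.0 CPM in mice given irisin after MPTP, also a change of 0.14 without overlap. Hnrnpf was 26.3, 23.7 and 65.6 CPM in MPTP mice and 49.9, 75.8 and 114.8 CPM in mice given irisin after MPTP, which overlapped, and it is among the uneven genes described further on.

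Irisin alone against control and irisin after MPTP against MPTP used 12 different mice in one fit. Of 69 members, 6 (8.7%) were higher without overlap in both, namely Hnrnpa1, Hnrnpll, Hnrnpr, Hnrnpul2, Rbm26 and Srsf1, beside 0.616% of every tested gene. None was lower without overlap in both, beside 0.47% of every tested gene. The log2 fold change was above 0 in both for 34 members (49.3%), beside 26.7% of every tested gene, and for 16 of 20 Hnrnp genes. The values of the second comparison were in view when the families were chosen. The smaller spread of the members, given above, goes with groups that separate at a smaller shift, and its part in these counts was not tested.

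Each mouse can also be placed by the median deviation of the 20 Hnrnp genes from their mean over the experiment. Among mice of the delayed treatment experiment it was -0.129, -0.0547 and -0.00457 in control mice and -0.0428, -0.0510 and -0.0368 in MPTP mice. It was 0.102, 0.0717 and 0.0246 in irisin mice and 0.0728, 0.0358 and 0.0324 in mice given MPTP and then irisin. Irisin mice were above control mice, of which control mouse 1 was the lowest. Mice given MPTP and then irisin were above MPTP mice too, but the families were chosen with that comparison in view, so this separation is a description and supports nothing. In the pre-treatment experiment the values were 0.0191, -0.0441 and -0.00820 in control mice, 0.0557, -0.0964 and -0.00534 in MPTP mice and -0.0410, 0.0211 and 0.0249 in mice given irisin before MPTP, and these groups overlapped. Irisin before MPTP and irisin after MPTP, each against MPTP alone, can be set side by side. Hnrnpdl, Hnrnpll and Srsf1 were higher without overlap in both experiments (4.35% of 69 members, beside 0.752% of genes tested in both). The comparison of irisin after MPTP was in view when the families were chosen, so this share too is a description and supports nothing. Hnrnpr was lower with irisin before MPTP and higher with irisin after it.

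**Figure D4:**
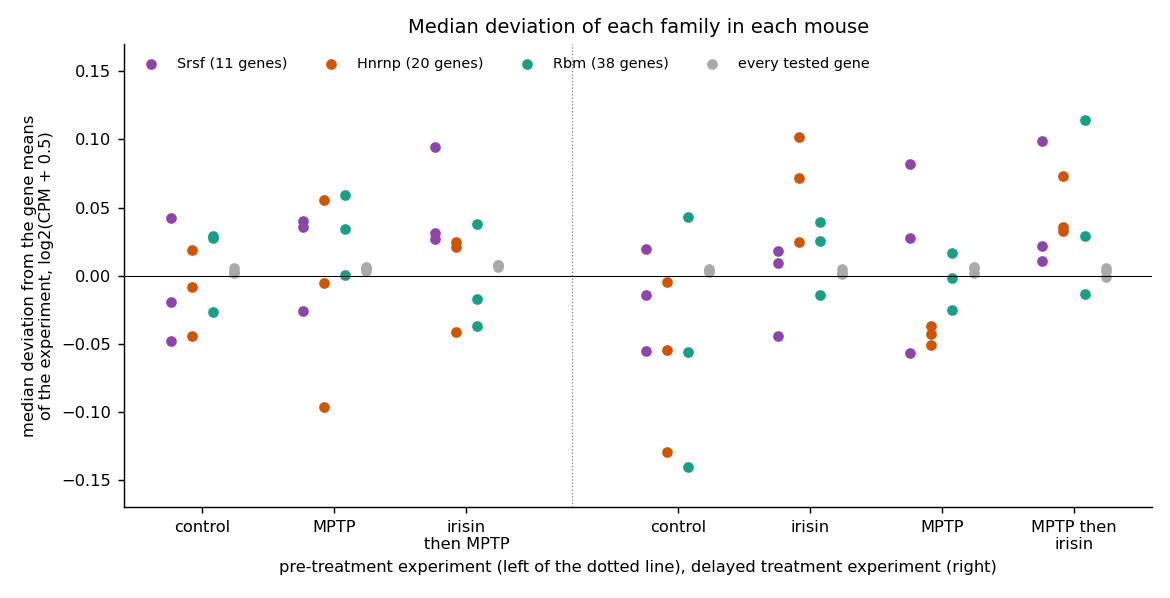
Median deviation (log2) of the Srsf, Hnrnp and Rbm genes in each mouse from the mean of its experiment, by group. In the delayed treatment experiment the Hnrnp medians of irisin mice, from 0.0246 to 0.102, lie above those of control mice, from -0.129 to -0.00457, and those of mice given MPTP and then irisin lie above those of MPTP mice, a comparison that was in view when the families were chosen.

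The interaction of irisin and MPTP in the delayed treatment experiment asks whether irisin changed a gene differently with the toxin than without it. By edgeR and DESeq2, 0 of 69 members passed the adjusted threshold, beside 0.0411% of all tested genes by edgeR, and 3 had an unadjusted p under 0.05, 1 higher and 2 lower, beside 5.57% of all tested genes, 2.81% higher and 2.76% lower. The interaction was above 0 for 31 of 69 members, beside 50.5% of all tested genes. Rbm38 had the largest of these, 1.49 ± 0.43 (adjusted p = 0.789), with 3.25, 4.67 and 1.85 CPM in irisin mice beside the levels of the other 3 groups given above. Its change with irisin was -0.55 without MPTP and 0.94 after MPTP. Rbm3os had -3.22 at the low levels given above. Hnrnpul2 had -0.17 ± 0.066 (adjusted p = 0.893), with 263, 269 and 265 CPM in MPTP mice and 289, 273 and 278 CPM in mice given MPTP and then irisin. For Hnrnpul2 every mouse of both groups was also above every control mouse of that experiment. The next were Hnrnpab with 0.17 and Rbm20 with -0.73.

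Shares of members with separated groups were 15.9% for MPTP in the pre-treatment experiment, 21.7% for MPTP in the delayed one, 24.6% for irisin before MPTP, 23.2% for irisin alone and 17.4% for irisin after MPTP, each above the share of all tested genes given with it. Shares with an unadjusted p under 0.05 ran from 8.7% for MPTP in the pre-treatment experiment to 17.4% for irisin alone. Members had a higher median level and a smaller median spread than all tested genes in both experiments, and the part of this in these shares was not tested.

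For further members, the range of the log2 fold change over the 5 pairwise comparisons is given. Srsf2 had log2 fold changes of -0.04 to 0.03, Srsf6 of -0.10 to 0.05, Hnrnpa1 of -0.03 to 0.10 and Hnrnph1 of -0.09 to 0.11. Rbm25, which joins U1 snRNP to 5' splice sites, had -0.07 to 0.09, Rbm10 had -0.07 to 0.05, Rbm5 had -0.01 to 0.13 and Rbm39 had -0.04 to 0.13. Rbm4 had -0.15 to 0.21, Rbm17 had -0.10 to 0.18 and Hnrnpu had -0.19 to 0.18. Some of these genes had groups without overlap, such as Hnrnpa1 in the irisin comparisons given above. Rbm17 was 46.5, 43.9 and 49.2 CPM in MPTP mice and 54.5, 53.7 and 50.1 CPM in mice given irisin before MPTP. Rbm39 was 181, 178 and 181 CPM in control mice and 202, 190 and 194 CPM in MPTP mice of the pre-treatment experiment.

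Other genes of the pathway were taken as 5 lists. The SR protein kinases and phosphatases (10 genes, among them Clk1 and Srpk1) had 0 genes past the adjusted threshold in all 6 comparisons, and at an unadjusted p under 0.05 at most 1 higher and 2 lower in any pairwise comparison and 3 higher in the interaction. Clk1, which phosphorylates SR proteins, and Clk4 were 0.20 and 0.18 (log2) lower in MPTP mice than in control mice of the pre-treatment experiment (adjusted p = 0.823 for both). The 18 SR-related factors and the 24 tested neuronal and tissue splicing regulators (of 25 listed) had 0 past the threshold, with at most 2 and 3 higher and 1 and 2 lower at an unadjusted p under 0.05. The 20 other RNA-binding proteins had 0 past the threshold, and 5 higher and 0 lower at an unadjusted p under 0.05 with irisin alone. Beside these, 4.53% of all tested genes were higher and 4.44% lower with irisin alone. Over the 6 comparisons the shares of all tested genes were 2.06 to 4.53% higher and 1.85 to 4.44% lower.

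The 6 nuclear-retained RNAs also had 0 past the threshold in all 6 comparisons.

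In the core spliceosome list of 30 genes, 1 gene passed in 1 comparison, irisin alone against control, beside 0.109% of all tested genes. Snrpd1, which codes for a protein of the Sm ring on small nuclear RNAs, was 30.8, 32.4 and 33.9 CPM in control mice and 44.96, 44.2 and 42.3 CPM in irisin mice. It rose by 0.44 ± 0.064 on the log2 scale (adjusted p = 0.0309 by edgeR and 6.35e-07 by DESeq2). The adjusted p was 0.149 with the replicate block, 0.377 with only the compared groups in the fit, 0.0517 without a filter on low counts and 0.0600 to 0.132 on leaving out a mouse. Snrpd1 was 39.5, 39.7 and 36.7 CPM in MPTP mice and 41.4, 41.97 and 41.1 CPM in mice given MPTP and then irisin. Every mouse of both groups was also above every control mouse, so a level above control was seen with MPTP without irisin too. These groups share the same control mice. Of the 30 genes, 17 were above 0 with irisin alone, beside 49.5% of all tested genes. With irisin before MPTP against MPTP 25 were above 0, beside 50.7% of all tested genes. There the median was 0.06 and 0 had an unadjusted p under 0.05.

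A few members were uneven between mice of the same group. A within-group SD above 0.5 on the log2 scale was found for Hnrnpa3, Rbm33, Rbm12b1, Rbm12 and Rbm47 in the pre-treatment experiment and for Hnrnpa3, Rbm33, Rbm12b1, Hnrnpf and Rbm24 in the delayed treatment experiment. Hnrnpa3, a relative of Hnrnpa2b1, was 227 CPM in control mouse 2 of the pre-treatment experiment and 205 CPM in irisin mouse 1 of the delayed treatment experiment. It was 22.5 CPM in mouse 2 given MPTP and then irisin and 9.50 CPM in control mouse 2 of the delayed treatment experiment, and 0.621 to 3.99 CPM in the other 17 mice. Its change of -5.30 ± 1.65 with MPTP in the pre-treatment experiment was -0.48 without that control mouse, and its change of 4.20 with irisin alone was -1.07 without that irisin mouse.

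Hnrnpa3 has many processed copies in the genome, and 39 genes share 75-base windows with its transcripts. A stretch from the middle of its coding sequence (bases 568 to 597) is shown beside 3 of the copies, because it is found in all 4 genes.
Hnrnpa3 (chr2:75659261-75669407, + strand): actattaatgggcataattgtgaagtgaaa
Gm5641 (chr3:54481438-54482925, + strand): actattaatgggcataattgtgaagtgaaa
Gm6793 (chr8:112013433-112015036, - strand): actattaatgggcataattgtgaagtgaaa
Gm11847 (chr4:12232833-12233951, + strand): actattaatgggcataattgtgaagtgaaa
These bases do not differ, and the 3 copies hold 93.9, 75.8 and 94.7% of the 30-base windows of the Hnrnpa3 coding sequence. The 13 same-strand copies together were 131 to 165 CPM in the pre-treatment experiment and 81.2 to 117 CPM in the delayed treatment experiment, and Gm6793 alone was 61.2 to 75.6 and 25.3 to 35.7 CPM. Hnrnpa3 was above the sum of its copies in pre-treatment control mouse 2 and in irisin mouse 1 of the delayed treatment experiment. It was below that sum in the other 19 mice, with 22.5 against 105 CPM in mouse 2 given MPTP and then irisin.

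Rbm33 (chr5:28317121-28416105, + strand), an adaptor of m6A demethylation, had no window shared with another gene. It was 11.5 to 26.1 CPM in 5 mice and 89.9 to 102 CPM in 4 mice of the pre-treatment experiment, with mice of every group on both sides. In the delayed treatment experiment it was 12.7 to 25.2 CPM in 6 mice and 50.4 to 69.2 CPM in 6 mice, again with mice of every group on both sides. No mouse lay between these ranges.

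Rbm12 (chr2:156091958-156111978, - strand) was 0.504 CPM in control mouse 3 and 7.99 to 15.4 CPM in the other mice of the pre-treatment experiment. It overlaps Cpne1 and the readthrough gene Gm28036 on its own strand. In control mouse 3, where Rbm12 was low, Gm28036 was 0.922 CPM and Cpne1 52.1 CPM, and their sum of 53.0 CPM was near the 48.4 and 50.6 CPM of control mice 1 and 2. In those mice, with like levels of Rbm12, Gm28036 was 0.447 and 27.8 CPM and Cpne1 47.9 and 22.8 CPM. The sum of the 3 genes was 43.1 to 65.98 CPM over the 9 mice. Rbm42 differed from its level in the other mice in 1 mouse, as mouse 2 given irisin before MPTP had 19.6 CPM of Rbm42 and 17.4 CPM of the overlapping Gm21982, beside 29.6 to 40.4 CPM of Rbm42 and at most 6.10 CPM of Gm21982 in the other mice of that experiment. Rbm42 shares 72.4% of its 75-base windows with Gm21982.

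**Figure D5:**
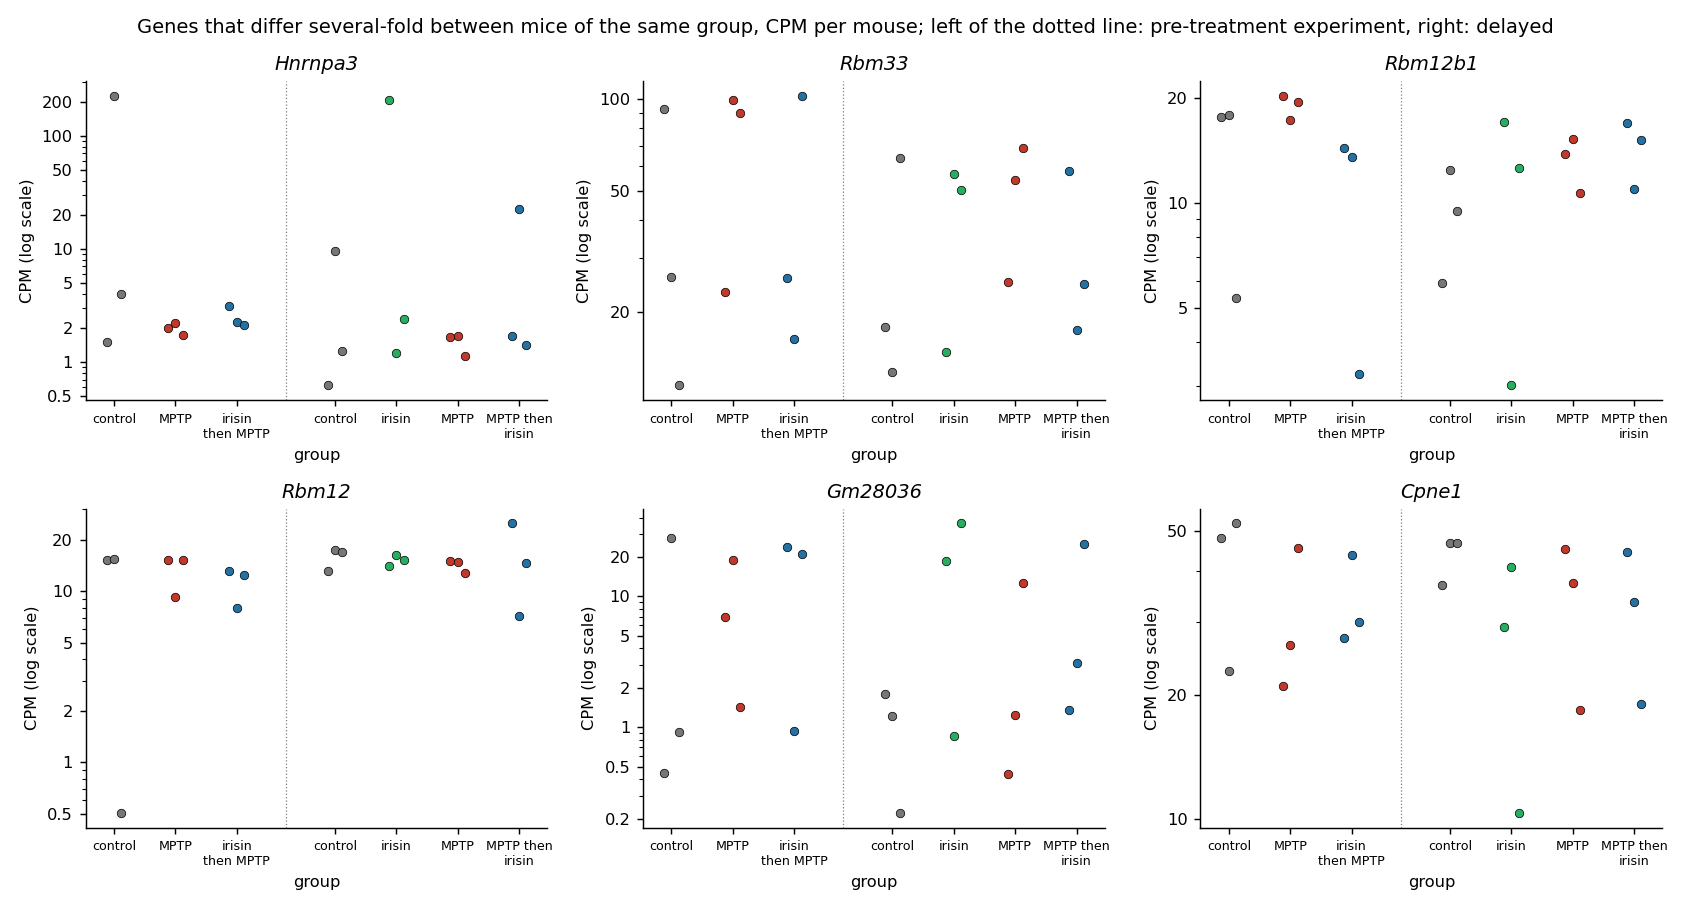
CPM on a log axis of Hnrnpa3, Rbm33, Rbm12b1, Rbm12, Gm28036 and Cpne1 in each of 21 mice, by group. Rbm33 falls into a lower range of 11.5 to 26.1 CPM and an upper range of 50.4 to 102 CPM over both experiments, and Hnrnpa3 is over 200 CPM in 1 mouse of each experiment.

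Some members shared sequence with other genes. Windows on either strand were counted, so near-copies were counted together with overlapping genes, such as Gm21982 for Rbm42 and the antisense Gm12992 for Srsf4. The share over all genes was not computed. In the annotated transcripts, 12 of 70 members shared over 20% of their 75-base windows with another gene, 15 shared 5 to 20% and 43 shared under 5%. The highest shares were 72.4% for Rbm42, 56.1% for Rbm4, 55.9% for Hnrnpf and 54.6% for Rbm12b1. Of the 12, 3 had a within-group SD above 0.5 in each experiment, as did 2 of the 42 tested members that shared under 5%. The 56.1% of Rbm4 is shared with Gm21992, and 6.85% of the 75-base windows of Rbm4 are in its neighbour Rbm4b. Rbm4 and Rbm4b, which regulate exon inclusion and translation, start with the same 30 coding bases. These are shown because 37.8% of the 30-base windows of the Rbm4 coding sequence are also in that of Rbm4b.
Rbm4 (chr19:4784293-4793901, - strand): atggtgaagctgttcattggaaatctgccc
Rbm4b (chr19:4756497-4767065, + strand): atggtgaagctgttcattggaaatctgccc

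The annotation also shows a feature that the choice by name did not use. Of the 68 protein-coding members, 31 (45.6%) had an annotated transcript of the nonsense-mediated decay type, beside 26.1% of 15950 protein-coding genes tested in both experiments. The share was 9 of 11 Srsf genes (81.8%), 10 of 20 Hnrnp genes (50.0%) and 12 of 37 Rbm genes (32.4%). A transcript with a retained intron was annotated for 45 of 68 (66.2%), beside 53.5%. The median number of annotated transcripts was 6 for members (7 for Srsf, 8 for Hnrnp and 5 for Rbm genes), beside 5 for the 15950 genes. Its part in these shares was not tested. The deposited counts are per gene, so they add these transcripts to the coding ones, and a change in splicing at an equal total would leave the values given here as they are.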

How the data were processed

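For each experiment the authors deposited, after sequencing on a NovaSeq instrument, a table of raw counts per gene made with featureCounts and FPKM values. The submitters' processing notes also name HISAT, StringTie, edgeR and mm9, without versions. Positions in the tables nevertheless matched the GENCODE M21 annotation of GRCm38, with chromosome, start, end and strand identical for 62 and 57 of the 70 members, and that build was used for positions and sequences. The strand setting of the counting is not given in the sources used here.

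The tests used the quasi-likelihood method of edgeR 4.0.16 under R 4.3.3, two-sided, after TMM scaling and a filterByExpr filter at 10 counts and 15 in total, with all groups of an experiment in a single fit and p-values adjusted over all tested genes. Alternatives were RLE scaling, no filter, DESeq2 1.42.0, only the compared groups, the replicate number as a block, limma 3.58.1 on log2(FPKM + 1) and log2(FPKM + 0.1), and leaving out each mouse. Steps were tested on simulated counts. No 2 mice of a group agreed within sampling noise.

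Named in the text were members past the threshold, the 5 with the smallest p in each comparison, the 3 highest and the lowest of each family, and a panel of 22. Of the other lists, the genes past the threshold and a few with small p-values were named. Further members whose groups did not overlap were named after their values were seen, as were the uneven genes. The members, lists and panel were chosen with earlier results of these data known.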

Additional observations from a re-analysis of the deposited data

Results flagged for a closer look

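With MPTP against control, the log2 fold change of Rbm3 was -0.45 in the pre-treatment and 0.49 in the delayed treatment experiment, that of Rbm3os was -0.58 and 2.41, and that of Hnrnpc was 0.11 and -0.15. For each of these genes the mice of the MPTP group lay on one side of the control mice in the first experiment and on the other side in the second, without overlap. The log2 fold change of Hnrnpr was -0.14 with irisin before MPTP against MPTP and 0.13 with irisin after MPTP against MPTP, also without overlap. The differences between the experiments were not tested, since the experiments were fitted separately and differ in the time from the last MPTP injection to sacrifice, which cannot be told apart from their other differences.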

How the results depend on the processing

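By edgeR, 0 members passed the adjusted threshold under RLE scaling, without a filter, with only the compared groups in the fit and with the replicate block, as in both limma fits and on leaving out any mouse. DESeq2 gave 1 member each with irisin before MPTP, with MPTP in the delayed treatment experiment and with irisin alone, and 0 in the other 3 comparisons. On all genes DESeq2 without a filter called 91 genes for MPTP and 169 for irisin before MPTP in the pre-treatment experiment, and 178 for MPTP, 144 for irisin alone, 34 for irisin after MPTP and 62 for the interaction. In that order edgeR called 5, 16, 29, 24, 1 and 9. The replicate block gave 2, 8, 17, 14, 1 and 7, and 6, 9, 12, 11, 5 and 4 members at an unadjusted p under 0.05, in the same order. Replicate numbers did not pair the mice, since same-numbered mice correlated at -0.078 to 0.101 in the pre-treatment and -0.076 to 0.039 in the delayed treatment experiment.

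On leaving out each mouse in turn, the median log2 fold change of the members ran from -0.014 to 0.0494 for MPTP and from -0.0480 to 0.0120 for irisin before MPTP in the pre-treatment experiment. In the delayed treatment experiment it ran from -0.0268 to 0.0305 for MPTP, from 0.0394 to 0.107 for irisin alone, from 0.0422 to 0.0785 for irisin after MPTP and from -0.0191 to 0.0328 for the interaction. Members at an unadjusted p under 0.05 fell from 12 to 7 for irisin alone without irisin mouse 1. They fell from 9 to 5 for irisin before MPTP without MPTP mouse 1 or without irisin mouse 2. They fell from 7 to 3 or 4 for irisin after MPTP without MPTP mouse 3, MPTP mouse 2 or irisin mouse 3, and rose from 3 to 5 for the interaction without control mouse 2 or 3. The change of Hnrnpa3 with irisin alone ran from -1.07 to 6.21, the former without irisin mouse 1, a mouse that held nearly all its counts in that group. Of 1103 values under an alternative, 1074 kept their direction and side of the threshold or moved by less than the spread.

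With 3 mice a group, 95% intervals lay within 1.5-fold for 47 to 54 of 69 members, and reached past 1.5-fold for the others.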
